A study of Mus musculus with 45 samples.

Results

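The nuclear-encoded subunits of the mitochondrial respiratory chain were taken as the genes whose symbols begin with Nduf, Cox4 to Cox8, Uqcr or Atp5, or are Sdha, Sdhb, Sdhc or Sdhd, without symbols holding -ps. This rule found 97 of the 53491 genes in the tables. It gave 41 genes of complex I, 8 assembly factors of complex I (Ndufaf), 4 genes of complex II, 8 of complex III, 19 of complex IV and 17 of complex V. Of them 4 are annotated as processed pseudogenes, namely Cox6c2, Ndufs6b, Ndufa11b and Ndufb4c. The libraries came from wild-type (WT) primary cortical cells of mouse embryos aged E11.5, E14.5 or E16.5, grown in medium for neural progenitors with 100 uM 4-thiouridine (4sU) for 20 h and then chased with 5 mM uridine. Chase times were 0, 2, 4, 8 and 12 h, sampled from 3 pools of embryos (replicates A, B and C) at each stage, which gave 45 libraries in 15 groups. A pool held cortex from 7 embryos at E11.5 and from 2 embryos later, and its cells were divided over the 5 chase times. SLAM-seq reads the label as T-to-C conversions, and a half-life here is the time in which the conversion rate of a transcript falls by 50% in these cultured cells.

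As background, the respiratory chain passes electrons from NADH (complex I) and succinate (complex II) to complex III and then, through cytochrome c, to oxygen at complex IV. The proton gradient built on the way drives ATP synthesis at complex V. A few core subunits are encoded in the mitochondrial genome, and all others come from nuclear genes whose mRNAs are translated in the cytosol and imported as proteins. Assembly factors such as the Ndufaf proteins help to build a complex but are not part of the finished enzyme.

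The sequences below were chosen because they show the elements counted in these genes. The first is the Pumilio site TGTANATA, a 3′ UTR element bound by Pumilio proteins, which are known for promoting mRNA decay. Among the 62 genes with a half-life at all stages, 4 (6.45%) held it in the 3′ UTR of their longest coding transcript, against 2554 (28.8%) of 8859 protein-coding genes with a half-life. The median 3′ UTR was 190 nt in the 62 genes against 1185 nt, and the shares were not adjusted for this length. Sites of 3 of the 4 genes and of Cox7c, which had too few reads for a half-life, are shown, with the site in capitals and positions on GRCm38:
Ndufaf4 (chr4:24903432-24903461, plus strand): tggctagcagaTGTAAATAtggtttcttaa
Ndufs3 (chr2:90894642-90894671, minus strand): ctaaggttgtcTGTAAATAaactccaatgg
Ndufb2, first site (chr6:39601187-39601216, plus strand): ttctacttggtTGTATATAtagcacatgag
Ndufb2, other site (chr6:39602473-39602502, plus strand): ggaagccagttTGTAAATAcaggataattt
Cox7c (chr13:86044822-86044851, minus strand): ctagaaaaaatTGTAAATAaactaatgaca
Of the 4 genes with a site and a half-life at all stages, Ndufaf4 had a mean of 3.11 h over the stages, the shortest of the 62. The others were at 5.45 h (Ndufs3), 6.27 h (Atp5g1, site not printed) and 7.51 h (Ndufb2). The median over all transcripts measured at all stages was 4.12 h. Whether the site bears on these half-lives was not tested.

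Promoter motifs of 3 factors known to act on respiratory chain genes were searched on both strands of RefSeq promoter windows (250 bases before to 50 after the gene start). A window was given for 76 of the 97 genes. The NRF1 motif (the first capitals in the Cox6a1 window) was found in 7 of them (9.21%), against 1.07% of 27025 windows of all genes and 2.16% of 11358 windows of expressed genes. The ETS motif CCGGAAG was found in 19 (25%), against 9.93% of all and 18.4% of expressed genes. The YY1 motif (the last capitals in the Ndufaf8 window) was found in 5 (6.58%), against 0.755% and 1.61%. No window of these genes held overlapping matches of different motifs. All 5 YY1 matches lay between 10 and 45 bases after the gene start, in Ndufa9, Ndufaf8, Ndufs4, Ndufs6 and Ndufs7. The windows of Cox6a1 and Ndufaf8, which together hold all 3 motifs, are printed, with matches in capitals and coordinates on GRCm38:
Cox6a1 (chr5:115348909-115349208, minus strand; NRF1 then ETS): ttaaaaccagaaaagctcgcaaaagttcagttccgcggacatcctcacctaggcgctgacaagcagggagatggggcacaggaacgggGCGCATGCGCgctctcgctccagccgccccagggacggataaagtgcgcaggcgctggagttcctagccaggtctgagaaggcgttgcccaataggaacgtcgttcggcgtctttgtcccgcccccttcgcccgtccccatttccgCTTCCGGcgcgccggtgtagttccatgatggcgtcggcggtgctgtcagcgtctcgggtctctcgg
Ndufaf8 (chr11:120098684-120098983, plus strand; ETS then YY1): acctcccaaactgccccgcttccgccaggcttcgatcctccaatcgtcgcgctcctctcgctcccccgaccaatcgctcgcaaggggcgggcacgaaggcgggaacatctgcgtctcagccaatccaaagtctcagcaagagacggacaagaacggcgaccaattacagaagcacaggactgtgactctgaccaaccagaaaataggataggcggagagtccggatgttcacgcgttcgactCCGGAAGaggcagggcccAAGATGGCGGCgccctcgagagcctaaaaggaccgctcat
Cox6a1 had the longest mean half-life of the complex IV genes measured under the 24 h limit at all stages, and Ndufaf8 encodes an assembly factor of complex I.

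Cox6a1 lies at chr5:115345642-115348981 (minus strand), Ndufa4 at chr6:11900292-11907497 (minus strand) and Ndufaf4 at chr4:24898083-24905001 (plus strand), and the last has a 3′ UTR of 3026 nt with 8 ATTTA pentamers and 1 Pumilio site.

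Depth was high for most of these genes. The libraries held 15.9 to 43.9 M reads and 228.7 to 629.1 M covered T positions, and the 97 genes took 0.902% to 1.19% of the reads. Markers of cortical progenitors summed to 8228 to 8738 CPM (reads per library scaled to the same total, cpm) at 0 h of E11.5 and to 1086 to 1176 cpm at E16.5, while neuron markers summed to 3086 to 3682 cpm and 8985 to 9456 cpm. Erythroid markers were at 1805 to 3928 cpm in E11.5 cells and at 87.7 to 208 cpm in E16.5 cells, and mesenchymal markers at 460 to 698 cpm and 13 to 30.9 cpm. Interneuron markers summed to 39.5 to 45.2 cpm in E11.5 cells and to 268 to 277 cpm in E16.5 cells, and 5 of the 5 tested were called higher at the later stage. Endothelial, microglia and muscle markers reached at most 13.4 cpm in every 0 h library. In such bulk libraries a change of level in a cell type and a change in the number of those cells cannot be told apart, and the part of this shift in the results below was not tested.

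Respiratory chain transcripts were long-lived at all 3 stages. A half-life passed the filters for 70 of the 97 genes in E11.5 cells, 72 in E14.5 cells and 77 in E16.5 cells. Their median was 8.11, 8.60 and 7.09 h in stage order, against 4.43, 4.60 and 3.48 h for all 10858, 10686 and 11850 measured transcripts. The difference between the 2 medians was 3.66 ± 0.47 h in E11.5 cells, 3.89 ± 0.41 h in E14.5 cells and 3.60 ± 0.10 h in E16.5 cells (SD, n = 3 replicates). At E11.5, 68 of the 70 genes (97.1%) lay above the median of all transcripts, and 45 (64.3%) lay in the longest-lived 10%. The counts were 70 of 72 (97.2%) and 51 (70.8%) in E14.5 cells, and 75 of 77 (97.4%) and 53 (68.8%) in E16.5 cells. At each stage the 2 genes under the median were Ndufaf1 and Ndufaf4, both assembly factors and not subunits. No measured subunit gene of complexes I to V fell below the median of all transcripts at any stage.

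The complexes differed in half-life. Complex IV, which reduces oxygen, had the longest median, with 12.0 h in E11.5 cells, 15.1 h in E14.5 cells and 13.0 h in E16.5 cells. Complex V, the ATP synthase, followed with 8.89, 9.47 and 8.62 h, and complex I with 8.08, 8.42 and 7.00 h. Complex III had medians of 6.90, 8.04 and 6.57 h, and complex II of 6.86, 7.13 and 6.27 h. The Ndufaf assembly factors were shortest, at 5.45, 5.66 and 4.20 h. Complex IV had the longest and the Ndufaf factors the shortest median in 9 of 9 replicates, and the order of all 6 groups was the same in 8 of 9. In the remaining replicate, E11.5 C, complexes II and III changed places. Complexes I, III and II were close, since at E14.5 their replicate medians of 7.79 to 9.22 h, 7.05 to 8.24 h and 6.41 to 8.03 h overlapped. The replicate medians of complex IV at E14.5, 12.4, 13.96 and 17.4 h, lay above all of these. Counts of genes behind the medians are small for complexes II (3 to 4), III (7 to 8) and IV (8 to 10), and no test was run over genes.

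**Figure D1:**
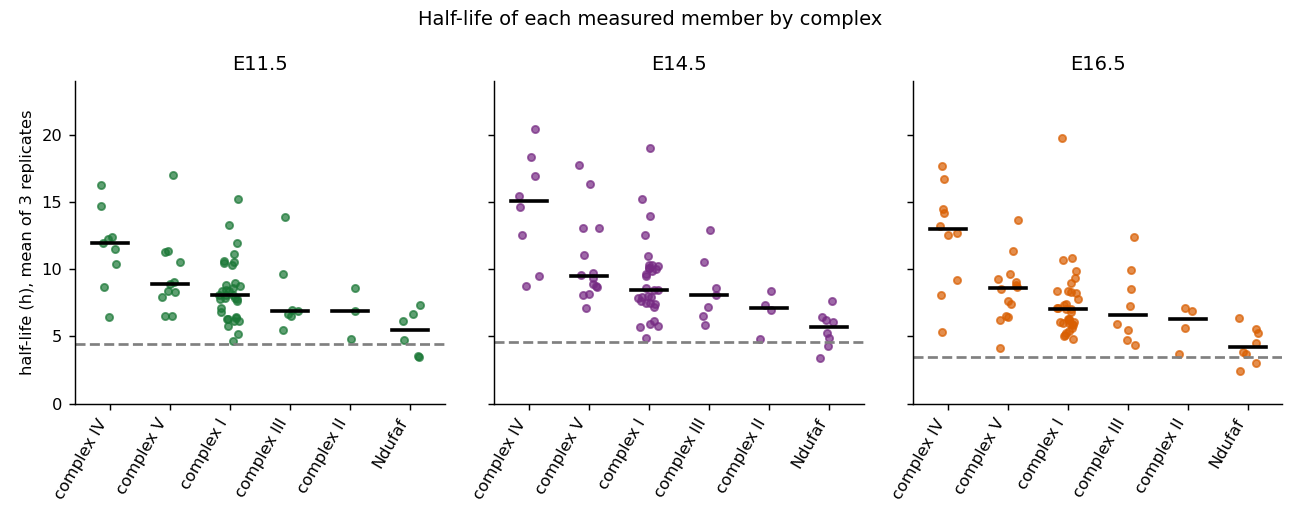
Half-life in hours (mean of 3 replicates) of each measured gene in the 3 stages, with one point for a gene, a black bar at the median of a complex and a dashed line at the median of all measured transcripts. Complex IV sits highest, with medians of 12.0, 15.1 and 13.0 h, and only 2 Ndufaf genes lie under the dashed line at each stage.

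**Figure D2:**
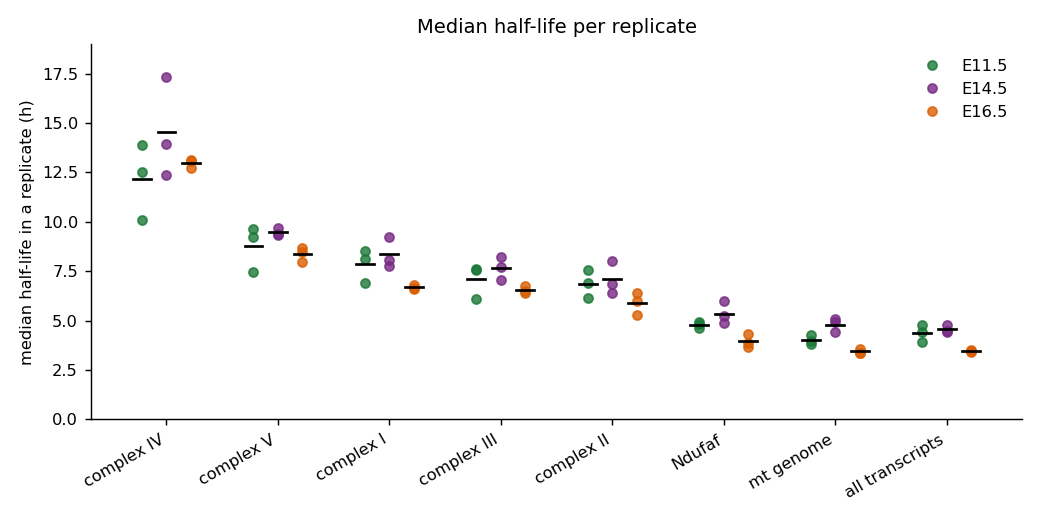
Median half-life in hours in each of the 3 replicates of a stage (points) with their mean (bars), for the complexes, for the subunits of the mitochondrial genome and for all transcripts. Complex IV is the highest group in each of the 9 replicates.

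Within complex I, which holds the most genes, mean half-lives over the 3 stages ran from 4.86 h for Ndufab1 to 16.1 h for Ndufa4 among 28 genes measured at all stages. Ndufab1 is the mitochondrial acyl carrier protein, which also serves fatty acid and lipoate synthesis. Its half-life was 5.14, 4.91 and 3.95 h in replicates A, B and C of E11.5, 4.86, 5.69 and 4.00 h in E14.5 cells, and 4.81, 4.92 and 5.51 h in E16.5 cells. The 3 stages overlapped. Ndufa4, named as a complex I subunit but known as a protein of complex IV, reached 13.3, 14.49 and 12.0 h in E11.5 cells, 14.6, 15.1 and 15.9 h in E14.5 cells, and 17.7, 19.01 and 22.6 h in E16.5 cells. At E16.5 its mean of 19.8 h was the longest among the 11850 transcripts measured there, all of them kept under the 24 h limit. Cox6c and Ndufa1, removed at E16.5 by that limit alone, are described below. Ndufs1, a large core subunit of the matrix arm which carries iron-sulfur clusters, was at the shorter end at 5.41 h. The small accessory subunits Ndufa7 (10.7 h) and Ndufa2 (9.98 h) were at the longer end. These 3 genes were chosen after their values were seen and do not stand for their classes. The small Ndufab1 was shortest, and the core subunit Ndufv1 was at 8.41 h.

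As a group the complex IV genes had the highest median, and single genes ranged widely. Among those with a half-life under 24 h at every stage, Cox6a1, a small regulatory subunit, had the longest mean over stages (16.8 h). Cox6c, left out by that limit, is described below. The half-lives of Cox6a1 were 11.9, 12.6 and 12.7 h in E11.5 cells, 19.1, 21.4 and 20.7 h in E14.5 cells, and 20.96, 17.3 and 14.8 h in E16.5 cells. The E11.5 replicates of Cox6a1 lay below all its others. Its mean at E14.5, 20.4 h, was the longest of the 10686 transcripts measured under the 24 h limit at that stage. Cox4i1, the regulatory subunit that binds ATP, followed at 16.6 h over the stages, Cox6b1, which lies between the monomers of the dimer, at 15.5 h, Cox7a2 at 13.97 h, Cox7b at 13.0 h and Cox8a at 12.2 h. Cox5a was lower at 8.76 h. The shortest was Cox7a2l, at 6.82 h, which encodes a factor for supercomplexes of III and IV and not a regular subunit of complex IV. Its replicates gave 6.93, 5.79 and 6.50 h in E11.5 cells, 7.92, 8.53 and 9.69 h in E14.5 cells, and 4.97, 6.06 and 5.01 h in E16.5 cells, so that E14.5 was above both other stages.

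In complex V, Atp5mpl, a small membrane subunit, was longest with a mean of 15.4 h over stages, and its replicates at E11.5 were widely spread at 14.1, 21.6 and 15.3 h. It reached 11.9, 21.7 and 19.7 h in E14.5 cells and 13.1, 11.1 and 9.87 h in E16.5 cells. The catalytic subunits were lower, Atp5b (beta) at 7.86 h and Atp5a1 (alpha) at 7.41 h. Atp5g1, one of 3 genes for the c-ring subunit, was shortest with 6.27 h, from 4.88, 8.16 and 6.45 h in E11.5 cells, 9.49, 9.05 and 5.94 h in E14.5 cells, and 3.90, 4.63 and 3.97 h in E16.5 cells. Atp5g3, which encodes the same mature protein, lay at 8.30 ± 1.09 h, 8.76 ± 0.44 h and 7.66 ± 0.11 h at the 3 stages (SD, n = 3). Unlike Atp5g3, Atp5g1 has its whole coding sequence in near-identical copies elsewhere in the genome, so its values are less certain.

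Complex II, the only complex built wholly from nuclear genes, had Sdhc (8.60 ± 0.72, 8.39 ± 1.89 and 6.90 ± 0.43 h) above Sdhd (4.77 ± 0.47, 4.77 ± 0.13 and 3.70 ± 0.12 h), although both encode membrane anchors of the same enzyme (SD, n = 3). The lowest replicate of Sdhc was above the highest of Sdhd at each stage. In complex III, Uqcrh, the hinge protein, was longest (9.65 ± 2.47, 10.6 ± 2.41 and 8.50 ± 0.46 h) and Uqcrfs1, the Rieske iron-sulfur protein, shortest (5.45 ± 0.38, 5.86 ± 0.63 and 4.38 ± 0.21 h; SD, n = 3). Their replicates did not overlap at any stage.

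Among the assembly factors, Ndufaf5, which modifies a complex I subunit, was longest at 6.31 h over stages, and Ndufaf4 was shortest at 3.11 h. Ndufaf4 decayed with half-lives of 4.09, 3.49 and 3.07 h in E11.5 cells, 3.14, 3.41 and 3.55 h in E14.5 cells, and 2.36, 2.32 and 2.60 h in E16.5 cells. At E16.5, 8.72 ± 1.90% of its 0 h label was left after 12 h, against 58.1 ± 2.23% for Cox6a1, 59.7 ± 5.33% for Ndufa4, 17.1 ± 0.28% for Atp5b and 9.16 ± 1.14% for Sdhd (SD, n = 3). Assembly factors named outside the symbol rule had medians near those of all transcripts, with 4.67, 4.88 and 3.29 h for 32 to 34 measured genes.

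**Figure D3:**
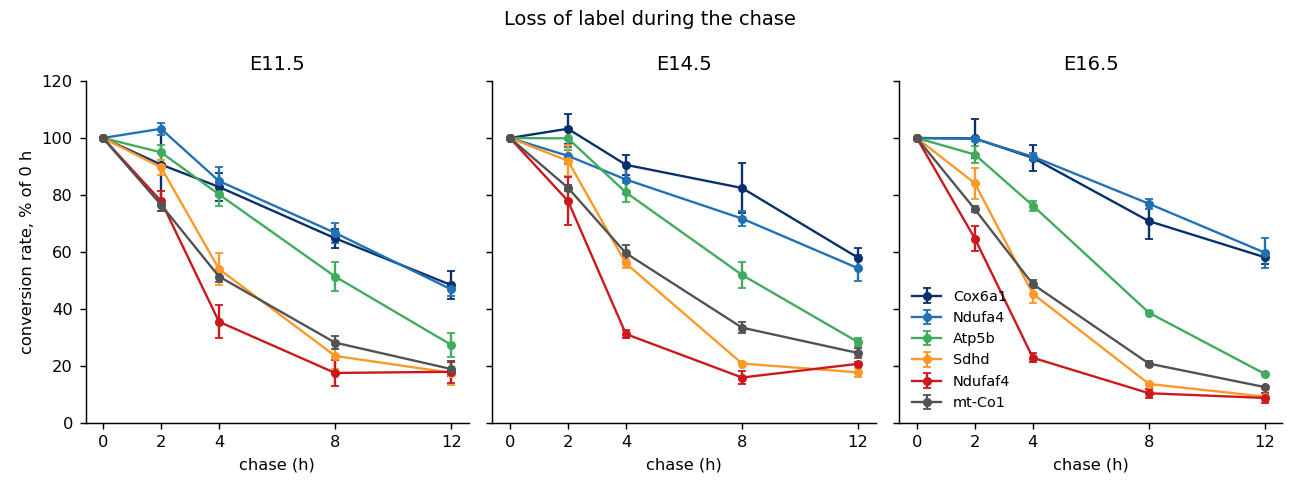
Conversion rate as a percentage of the rate at 0 h against hours of chase in the 3 stages, as the mean of 3 replicates with SD as error bars. Cox6a1 and Ndufa4 kept 46.9% to 59.7% of their label at 12 h, and Ndufaf4 kept 8.72% to 20.7%.

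The partners of these proteins that the mitochondrial genome encodes had lower median half-lives. Of such genes 6 were in the tables, and 4 had a half-life, with medians of 4.01, 4.80 and 3.44 h at the 3 stages. Of these 4 genes, 2 were above the median of all transcripts at each stage. Cyc1 and Cycs, the cytochromes that carry electrons at and after complex III, had a median of 6.56 h in E11.5 cells and 6.73 h in E16.5 cells. Enzymes of the TCA cycle, which feeds the chain, had medians of 5.86, 6.08 and 5.58 h (13 genes), and glycolytic enzymes of 7.72, 7.97 and 6.72 h (16 measured of 17). Regulators of mitochondrial gene expression, among them Nrf1, Gabpa and Tfam, had medians of 3.59, 3.70 and 2.997 h (10 to 11 of 12 measured), with 1 to 2 genes above the median of all transcripts.

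Genes without a half-life were sorted by the filter that they failed. A half-life was measured at all stages for 62 genes, at 2 stages for 14, at 1 stage for 5 and at none for 16. Coverage was too low at each stage for 12 genes, which were the tissue isoforms Cox4i2, Cox6a2, Cox6b2, Cox7a1, Cox7b2, Cox8b, Cox8c and Ndufa4l2, the pseudogene Ndufb4c, and Atp5g2, Atp5l and Cox7c. The fit failed the R2 limit or gave a negative half-life for 13, 11 and 6 genes in stage order. A half-life over 24 h alone removed Atp5e at the 2 earlier stages, Cox6c at all stages and Ndufa1 at the last. Cox6c, a small complex IV subunit, kept 62.8 ± 3.12%, 66.6 ± 7.85% and 60.2 ± 5.21% of its label after 12 h, and Ndufa1, an early-assembling complex I subunit, kept 62.8 ± 5.65%, 77.4 ± 16.4% and 67.7 ± 8.48% (SD, n = 3). Atp5e, the epsilon subunit of complex V, kept 59.8 ± 8.11%, 60.4 ± 10.7% and 46.2 ± 3.53%, and was measured at E16.5 with 12.3, 13.5 and 15.1 h.

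Label content at 0 h gave a further readout of turnover from the labelling period, since a slowly renewed RNA takes up less label. The conversion rate of a gene divided by that of its library had a median over the respiratory chain of 0.925, 0.902 and 0.916 at the 3 stages, against 1.01, 1.03 and 0.993 over all genes. Of the respiratory chain genes 17 of 85, 14 of 86 and 16 of 87 were above 1, against 7251 of 13185, 8152 of 13660 and 6516 of 13603 over all genes. This rate also scales the half-life, so both readouts share the 0 h library. By complex, the label did not follow the order of the half-lives at every stage. Complex IV had medians of 0.9199, 0.8824 and 0.8904 in stage order, against 0.925, 0.8895 and 0.912 for complex I. The short-lived Ndufaf factors had the lowest median of the groups at E11.5 (0.8897) and the highest at E14.5 and E16.5 (1.026 and 0.9743). Complex III was lowest at E16.5 (0.8547). Differences in label between complexes were not tested.

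In several genes the rates stood apart from those of their libraries, and Ndufs4, Sdhb, Ndufa13 and Cox7c are given here. The conversion rate of Ndufs4, a late-assembling complex I subunit, was 2.06%, 1.99% and 1.97% at 0 h of E14.5 and 1.32%, 1.19% and 1.16% at 12 h. At E11.5 it was 1.11%, 1.05% and 1.54% at 0 h and 0.219%, 0.266% and 0.325% at 12 h. Over all genes the 12 h rate at E14.5 was 0.256% to 0.261%. The fitted half-life of Ndufs4 was accordingly 19.9, 21.7 and 15.5 h in E14.5 cells against 6.79, 8.54 and 6.04 h in E11.5 cells and 6.77, 8.54 and 11.6 h in E16.5 cells. Sdhb, the iron-sulfur subunit of complex II, had a 0 h rate of 1.70%, 0.960% and 1.94% at E11.5 and of 1.53%, 1.56% and 2.08% at 2 h, and its rates at 12 h were still 0.803%, 0.987% and 0.839%. Replicates B and C of Sdhb thus had more label after 2 h than at 0 h, and no half-life was kept at that stage. At E14.5 the 12 h rate of Sdhb was 0.250%, 0.229% and 0.199%. At E16.5 it was 0.173%, 0.683% and 0.926%, from 0 h rates of 1.69%, 2.31% and 2.47%, so that replicate A was apart from B and C. Relative to the library, the 0 h rate of Ndufa13, an accessory subunit of complex I, was 1.58, 1.68 and 1.04 in E11.5 cells, 0.968, 0.817 and 0.916 in E14.5 cells, and 1.42, 1.42 and 1.40 in E16.5 cells. That of Cox7c at E16.5 was 2.07, 1.68 and 2.06, from few reads. No unlabelled library was used here, and whether T-to-C differences fixed in the DNA of some pools add to these rates was not tested, so the fitted half-lives of these genes are uncertain.

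To ask whether any of these genes changed stability relative to other transcripts, each replicate's half-lives were turned into z-scores and compared with limma over the 9505 transcripts that had a half-life at every stage. The F-test over the stages called 1 of 62 genes, Ndufa4 (adjusted p = 0.0146), against a background of 3.15% of all transcripts. Ndufa4 stood 4.16, 4.07 and 4.80 SD above the mean transcript in E11.5 cells, 4.85, 4.92 and 4.47 SD in E14.5 cells, and 8.41, 8.93 and 11.1 SD in E16.5 cells. The difference from E11.5 to E16.5 was 5.12 ± 0.61 SD units (SE, limma, adjusted p = 0.00736), and from E14.5 to E16.5 4.72 ± 0.61 (adjusted p = 0.0270). The F-test called 0 genes without replicate B of E16.5, and 2 without E11.5 A, E11.5 C or E14.5 C.

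Between E16.5 and E11.5, 4 genes were relatively longer-lived at E16.5 and 0 were shorter-lived (background 2.99% longer and 1.71% shorter). Beside Ndufa4 these were Cox4i1 (difference 2.61 ± 0.48, adjusted p = 0.0264), Cox6a1 (4.28 ± 0.96, adjusted p = 0.0476) and Ndufb6 (0.62 ± 0.14, adjusted p = 0.0443; SE, limma). Ndufb6, an accessory subunit of the membrane arm, had half-lives in hours of 8.53, 8.50 and 6.49 in E11.5 cells and of 7.43, 7.46 and 7.39 in E16.5 cells, so in hours its values at E16.5 lay within the range at E11.5. Cox4i1, Cox6a1 and Ndufb6 were not called by the F-test. This count was 1 without E11.5 B and 2 without E14.5 B, E16.5 A or E16.5 B. From E14.5 to E16.5, 1 gene was longer-lived (Ndufa4) and 0 shorter-lived, with a background of 0.684% and 0.2%. It was not called without any one of the E14.5 replicates, nor without E16.5 A or B. From E11.5 to E14.5 there were 0 calls either way (limma, background 0.126% and 0.0736%), and the nearest was Ndufs4, with a difference of 5.42 ± 1.01 (adjusted p = 0.0837). At an unadjusted p under 0.05, limma had 7 genes from E11.5 to E14.5, 16 for the step from E14.5 and 15 between the first and the last stage, in either direction. The share of all transcripts at this unadjusted limit is not given, so these counts were not set against a background.

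Levels of the respiratory chain changed little between stages compared with other genes. Covered-T counts at 0 h, the T positions covered by the reads of a gene, were tested with edgeR for 94 of the 97 genes. A read covers several Ts, so a gene with few reads can pass the limit of 10 covered Ts, and a count here is not an independent read. The untested genes were Cox8b, with 0 reads, Cox8c, with 1 read, and Cox7b2, with 6 reads in the 9 libraries together. From E11.5 to E14.5, 26 genes rose and 10 fell, with a background of 25.1% higher and 23.5% lower over all 18408 genes. From E14.5 to E16.5, 6 rose and 34 fell, with a background of 24.1% and 25.4%. From E11.5 to E16.5, 17 rose and 30 fell, against 31.4% and 33.1%. The median log2 fold change of the 94 genes was 0.09, -0.16 and -0.11, against -0.01, 0.00 and -0.04 for all genes. The changes were small. Of the 36, 40 and 47 called genes, 5, 1 and 4 went beyond 2-fold (13.9%, 2.5% and 8.51%), against 33.2%, 26.5% and 45.4% of all called genes. This contrast was not matched for expression level, on which the smallest change that can be called depends.

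The count of genes that rose from E14.5 to E16.5 was 1 without replicate C of E16.5, 2 without E14.5 C and 3 without E14.5 B or E16.5 A, and the 30 that fell from E11.5 to E16.5 were 18 without replicate A of E16.5. Across the 2 steps, 14 genes rose and then fell, 19 were first not called and then fell, 10 rose and were then not called, and 36 were called in neither. The shares of all genes with these patterns were not counted, so whether the patterns are particular to the respiratory chain is not known. The genes that rose and then fell were those in which E14.5 was highest, such as Uqcrc2, a core subunit of complex III, with 191, 199 and 207 cpm in E11.5 cells, 263, 241 and 295 cpm in E14.5 cells, and 214, 215 and 216 cpm in E16.5 cells. Its log2 fold changes were 0.46 ± 0.07 and -0.28 ± 0.07 (SE, edgeR, adjusted p = 0.000143 and 0.00526). Uqcrc2 was chosen as an example after its values were seen.

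**Figure D4:**
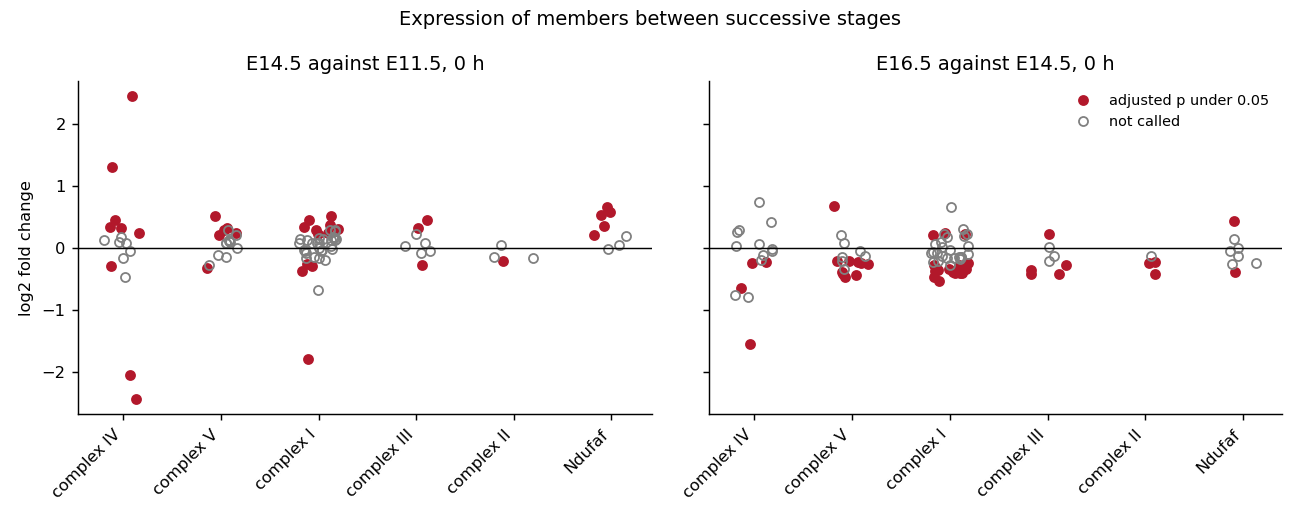
Log2 fold change of expression at 0 h (edgeR) for each tested gene by complex, from E11.5 to E14.5 (left) and from E14.5 to E16.5 (right), with filled points at an adjusted p under 0.05 and open points for genes not called. On the left 26 genes rose and 10 fell, and on the right 6 rose and 34 fell.

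Summed by complex, complex V took the most reads, with 4148 ± 287 cpm in E11.5 cells, 3945 ± 110 cpm in E14.5 cells and 3471 ± 65.6 cpm in E16.5 cells, and complex I 2592 ± 170, 2618 ± 112 and 2281 ± 55.3 cpm (SD, n = 3). Complex IV was at 1169 ± 88.7, 1374 ± 92.5 and 1154 ± 20.5 cpm. Complex II was at 672 ± 21.4, 600.6 ± 34.9 and 499 ± 5.06 cpm. From E11.5 to E16.5, 3 of the 4 complex II genes fell and 0 rose (Sdha, Sdhc and Sdhd), and Sdhb was not called. In complex I, 8 rose and 16 fell of 41 tested, and in complex III 1 and 2 of 8. In complex IV, 3 rose and 4 fell of 16, and in complex V 1 and 4 of 17. Over all 18408 genes, 31.4% rose and 33.1% fell between these stages, and differences between complexes were not tested. The Ndufaf factors had 4 that rose and 1 that fell of 8, with a median log2 fold change of 0.16, the highest of the 6 groups.

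The 5 largest rises from E11.5 to E16.5 without overlap of replicates were Cox6a2, Ndufaf3, Atp5g1, Ndufaf5 and Ndufb2. Ndufaf3, an assembly factor, went from 11.7, 13.6 and 13.5 cpm in E11.5 cells to 18.2, 17.1 and 18.5 cpm in E14.5 cells and 22.4, 22.8 and 25.7 cpm in E16.5 cells (log2 fold change 0.96 ± 0.10, adjusted p = 1.9e-06). It rose at both steps. Ndufaf5 went from 19.2, 21.6 and 21.1 cpm to 31.3, 30.1 and 31.5 cpm and 32.5, 34.0 and 35.8 cpm (0.81 ± 0.08, adjusted p = 1.1e-06), and Ndufb2, a small complex I subunit, from 20.7, 23.9 and 21.4 cpm to 30.5, 27.0 and 32.6 cpm and 30.4, 28.0 and 29.8 cpm (0.62 ± 0.08, adjusted p = 1.8e-05). Both passed the test in the earlier step and not in the later one. Atp5g1 was low, at 4.03, 3.99 and 2.96 cpm in E11.5 cells and 5.25, 6.97 and 7.58 cpm in E16.5 cells (0.88 ± 0.21, adjusted p = 0.0023).

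The 5 largest falls were Cox6b2, Ndufa4l2, Cox4i2, Sdhd and Ndufa12. Sdhd, with 127, 137 and 128 cpm in E11.5 cells, 114, 106 and 124 cpm in E14.5 cells, and 85.0, 84.1 and 83.2 cpm in E16.5 cells, changed by -0.58 ± 0.07 on the log2 scale (adjusted p = 4.6e-06). Its stages did not overlap. Ndufa12, an accessory subunit of complex I, went from 24.8, 31.1 and 28.1 cpm to 17.5, 17.6 and 21.1 cpm (-0.50 ± 0.10, adjusted p = 0.000792; all SE and p from edgeR). The other 3 falls and the Cox6a2 rise were in genes near 1 cpm, described next.

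Tissue isoforms of respiratory chain subunits were near zero, and the common isoforms carried nearly all reads. Per kilobase of exon, Cox4i1 stood at 163 to 173 cpm per kb over the stage means, against 0.264 to 1.06 cpm per kb for Cox4i2, the lung and hypoxia isoform. Cox6a1 was at 177 to 233 cpm per kb and Cox6a2, the heart and muscle isoform, at 0.441 to 2.28. Cox6b1 was at 193 to 216 and Cox6b2, the testis isoform, at 0.262 to 2.44. Cox7a2 was at 94.4 to 124, Cox7a2l at 24.6 to 39.3 and the muscle isoform Cox7a1 at 0.418 to 0.629. Ndufa4 was at 89.7 to 123 and Ndufa4l2, known as a hypoxia-induced gene, at 0.179 to 0.704 cpm per kb. For the c-ring, Atp5g3 was at 117 to 136 cpm per kb, Atp5g1 at 0.745 to 1.34 and Atp5g2 at 0.422 to 0.556. Atp5g1 and Atp5g2 have 100% of their coding sequence in near-identical copies elsewhere in the genome and Atp5g3 has 0%, so this contrast is uncertain.

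Of these minor isoforms 3 fell after E11.5. Cox4i2 went from 0.704, 0.721 and 1.08 cpm to 0.266, 0.237 and 0.214 cpm at E16.5 (log2 fold change -1.77 ± 0.53, adjusted p = 0.0101), Ndufa4l2 from 0.900, 0.529 and 0.884 cpm to 0.266, 0.142 and 0.214 cpm (-2.08 ± 0.47, adjusted p = 0.00179), and Cox6b2 from 1.88, 1.78 and 4.46 cpm to 0.266, 0.498 and 0.107 cpm (-3.21 ± 0.53, adjusted p = 0.000149). These counts were 57 to 201 reads in E11.5 cells and 21 to 32 in E16.5 cells, summed over 3 libraries. Cox6a2 rose from 0.274, 0.433 and 0.192 cpm to 1.27, 2.31 and 1.07 cpm in E14.5 cells and was 0.761, 0.498 and 1.18 cpm in E16.5 cells (1.66 ± 0.42 from E11.5 to E16.5, adjusted p = 0.00378; SE and p from edgeR). Erythroid and mesenchymal markers were lower at E16.5 than at E11.5, as given above, and their part in these changes was not tested. Markers of muscle, where Cox6a2 is known to be expressed, summed to 0.769 to 3.20 cpm.

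Near-identical copies limit the levels of single genes, and processed pseudogenes of these subunits are common. In 24 genes over 50% of the coding sequence matched another place in the GRCm38 genome (at least 95% identity over at least 50 bases), and their median level was 31.7 cpm, with 6 under 10 cpm. The 61 others, without the 8 tissue isoforms and the 4 annotated pseudogenes, had a median of 91.5 cpm, with 2 under 10 cpm. Among those with copies were Atp5g2 (0.81 cpm), Cox7c (1.22), Atp5l (1.32), Atp5md (4.45), Atp5g1 (4.91) and Ndufb4 (6.01), all low for subunits of these enzymes. How reads with several alignments were counted is not stated, so these levels are uncertain. Cox7b, chosen here after its values were seen, also has its whole coding sequence in copies. It had 85.9, 93.1 and 134 cpm in E11.5 cells, 270, 225 and 259 cpm in E14.5 cells and 82.7, 84.7 and 82.4 cpm in E16.5 cells, a rise of 1.304 ± 0.14 and then a fall by 1.56 ± 0.14 on the log2 scale (SE, edgeR, adjusted p = 5.4e-06 and 1.6e-06), the largest step among genes above 10 cpm here.

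Some libraries also stood apart. At 0 h of E11.5, 13 of 92 of these genes lay below the group mean in replicate B, against 76 in A and 68 in C, and their summed level was 10352 cpm in B against 9230 and 9292 cpm. At 12 h of E11.5, 83 of 92 lay below it in replicate C. Without replicate B of E11.5, 30 genes were called higher and 9 lower at E14.5, and 16 higher and 24 lower at E16.5. The shares of all genes called without that replicate are not given. Replicate C of E14.5 at 0 h deviated from its group with a correlation of -0.39 with the GC content at the last codon position over 12878 genes, against -0.20 to 0.30 in the other 0 h libraries. Cox6a1 was at 147, 142 and 83.3 cpm at E14.5 and Ndufs7, a core subunit of complex I, at 43.6, 44.1 and 29.2 cpm, so replicate C was lowest in both.

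Levels were also compared between 12 h and 0 h of chase. Within E11.5, 5 of 93 genes were higher and 3 lower at 12 h (background 10.3% and 8.18%), within E14.5 1 and 1 of 94 (6.29% and 5.63%), and within E16.5 32 and 2 of 94 (13.1% and 11.4%). With the pool as a block, which pairs the libraries of a pool, the counts were 15 and 6 in E11.5 cells (17.8% and 16.1%), 7 and 3 in E14.5 cells (10.8% and 9.97%) and 43 and 3 in E16.5 cells (18.7% and 17.1%). The rises at E16.5 were small, with a median log2 fold change of 0.12 over the 94 genes, and the count fell to 8 without pool A, 14 without pool B and 21 without pool C. At E11.5 it was 1 without any one pool, and at E14.5 it was 0 without pool B or C. A test of the difference between stages called 0 genes in edgeR for each pair of stages (background 5.32% for E14.5 against E11.5, 0.43% for E16.5 against E14.5 and 7.36% for E16.5 against E11.5), with 7, 5 and 4 genes at an unadjusted p under 0.05. The share of all genes at the unadjusted limit is not given, so the counts of 7, 5 and 4 were not set against a background.

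Cox7a2l was higher at 12 h at every stage. It went from 48.7, 51.8 and 52.6 cpm to 61.4, 67.1 and 61.9 cpm in E11.5 cells, from 57.3, 55.2 and 61.6 cpm to 67.9, 72.3 and 77.0 cpm in E14.5 cells, and from 35.4, 36.9 and 37.0 cpm to 46.7, 51.4 and 48.0 cpm in E16.5 cells. The log2 fold changes were 0.50 ± 0.07, 0.34 ± 0.07 and 0.44 ± 0.05 (SE, edgeR). Ndufaf4 was lower at 12 h in all 3 pools of E11.5 and E14.5, with log2 fold changes of -0.26 ± 0.08 (adjusted p = 0.0348) and -0.43 ± 0.09 (adjusted p = 0.0118). Since edgeR scaled the libraries with TMM, and Gm42418 alone took 3.38% to 8.16% of the reads at 12 h of E11.5, fold changes can differ from the ratio of the cpm values. Ndufa4 was higher at E16.5, from 123, 122 and 126 cpm to 157, 158 and 146 cpm (0.31 ± 0.04, SE).

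**Figure D5:**
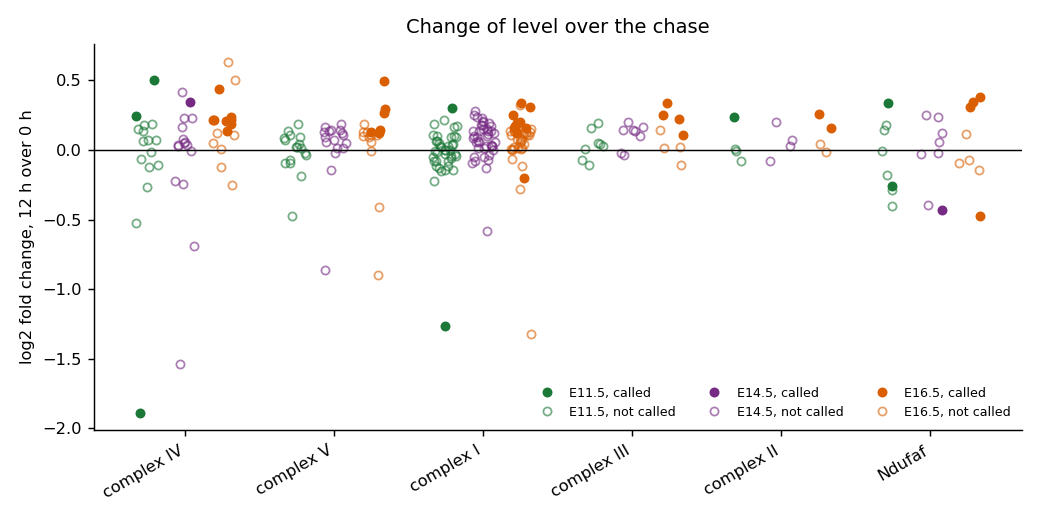
Log2 fold change of expression at 12 h over 0 h of chase (edgeR) for each tested gene by complex and stage, with filled points at an adjusted p under 0.05. At E16.5, 32 genes were called higher and 2 lower, and at E14.5 1 and 1.

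The genes of the respiratory chain share short transcripts. Among the 62 with a half-life at all stages the longest coding transcript had a median of 1003 nt, against 3339 nt in the 8859 protein-coding genes, with a coding sequence of 508.5 against 1494 nt and a 3′ UTR of 190 against 1185 nt. An AU-rich pentamer (ATTTA), the core of elements known to shorten mRNA life, was in the 3′ UTR of 31 (50%), against 71.5%. These shares were not adjusted for 3′ UTR length. GC content at the last codon position was similar, with medians of 58.6% and 59.1%. Across the 62 genes the mean half-life had a Spearman correlation of -0.53 with coding length and of -0.12 with 3′ UTR length, and over all 8859 genes the values were -0.13 and -0.29. These are descriptions across genes, which are not independent replicates. Complex IV had the shortest coding sequences, with a median of 300 nt in its 8 genes, and the assembly factors the longest, with 775.5 nt in 6.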

How the data were processed

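For each pool the deposited table holds, per gene, the covered T positions as counts, the conversion rate as a fraction and the expression in CPM, which the authors made with SlamDunk on mm10 by summing over GENCODE exons. Handling of reads with several alignments and strand is not given in the sources used here. Deposited half-lives and R2 were used only to check the refit, which was within 1% for 99.9906% of 117534 fits, and 18 columns of the authors' means over chase times were not used. CPM values were whole multiples of 1 read in 100% of cases (tolerance 0.01 reads).

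Half-lives were refitted as exp(-kx) on rates divided by the 0 h rate, and kept at over 500 covered Ts at all times, 0 to 24 h and R2 above 0.6 in all 3 replicates. Relative half-lives were tested with limma 3.58.1, and covered-T counts (above 10 in all libraries, TMM) with the quasi-likelihood test of edgeR 4.0.16. Benjamini-Hochberg adjustment ran over all genes, called at 0.05. DESeq2 1.42.0 was an alternative. Tests were tried on simulated data. Libraries of one letter within a stage share a pool (correlations of deviations at 0 and 12 h of 0.14 to 0.56), whereas letters across stages do not (-0.15 to 0.14).

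Annotation was GENCODE M21 (GRCm38), a different release from that of the tables, with all 97 genes matched, 3 of them through RefSeq synonyms or position. Copies were searched with BLAST 2.17.0. Named genes were the longest and shortest half-life of each complex, genes called for relative half-life, the 5 largest rises and falls from E11.5 to E16.5, isoform families, and genes removed only by the 24 h limit. Other genes named, such as Ndufs1, Ndufa7, Cox5a, Atp5b, Ndufs4, Sdhb and Ndufa13, were chosen after their values were seen. Genes and lists were chosen with earlier results of these data known.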

Additional observations from a re-analysis of the deposited data

How the results depend on the processing

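Of 355 values of comparisons under alternative settings, 271 kept their value within the spread or within 1.5 times, 84 moved and 0 reversed. Of 1062 values of named genes, 943 kept theirs, 52 moved, 67 lost their call and 0 reversed. For the half-life, R2 above 0.8 left 34 genes at all stages and gave a median of 6.66 h at E16.5, 3.36 h above all transcripts, with complex IV 7.51 h above complex I. A free start of the curve gave a median of 7.70 h in E14.5 cells and 6.38 h in E16.5 cells, differences from all transcripts of 3.12, 3.32 and 3.04 h at the 3 stages, and complex IV above complex I by 4.69 h at E14.5. Without the 12 h library 40 genes remained at all stages, with medians of 9.73, 9.40 and 8.09 h, differences of 5.65, 5.15 and 4.75 h, and complex IV above complex I by 3.58 h (E14.5) and 6.64 h (E16.5). At E16.5 complex IV was above complex I by 6.22 h without the 24 h limit, by 7.00 h with Ndufaf in complex I and Ndufa4 in complex IV, and by 5.95 to 6.51 h without 1 replicate. Protein-coding genes as comparison gave 3.71 h at E16.5. Leaving out 28 genes with copies or annotated as pseudogenes, chosen after seeing the data, gave 6.95 h, 3.47 h and 6.72 h at E16.5. The cause of these shifts was not tested. For relative half-life the F-test called 13 genes on unscaled hours, 2 on log2 half-lives and 0 to 2 without 1 replicate. From E14.5 to E16.5 longer-lived calls were 0 to 1 without 1 replicate, and unscaled hours called 18 shorter. In hours the median of all measured transcripts also fell, from 4.60 h in E14.5 cells to 3.48 h in E16.5 cells. From E11.5 to E16.5 longer-lived calls were 2 on hours, 1 on log2 values and 1 to 4 without 1 replicate, and hours called 3 shorter. The letters do not pair stages, and a replicate block across them called 0 genes in the F-test, 0 longer-lived from E14.5 to E16.5 and 1 from E11.5 to E16.5. For expression, adding a 2-fold limit left 2 higher and 3 lower (E14.5 against E11.5), 0 and 1 (E16.5 against E14.5) and 1 and 3 (E16.5 against E11.5). From E14.5 to E16.5 the count of genes that rose was 10 on recovered reads, 3 without a filter, 12 in 12 h libraries, 10 with DESeq2 and 1 to 8 without 1 replicate, and the fall from E11.5 to E16.5 was called for 18 to 33. Between 12 h and 0 h the pool as replicate block gave 15 higher and 6 lower at E11.5 and 7 and 3 at E14.5. Leaving out 1 replicate gave 1 to 1 higher and 0 to 1 lower at E11.5, 0 to 1 and 0 to 2 at E14.5, and 8 to 21 and 1 to 2 at E16.5, and recovered reads gave 3 lower at E14.5. Apart from the pool block, whose background is given above, the shares of all genes called under these settings are not given. The counts under those settings were therefore not set against a background.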
